A study of Mus musculus with 16 samples.

Results

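The 9 trophectoderm genes Cdx2, Eomes, Elf5, Gata3, Hand1, Tfap2c, Krt8, Krt18 and Krt19 were followed through a set of 16 mouse RNA samples, each hybridized to 1 array. Members were taken by name: 9 probes carried the name of a gene in the set, and 1 probe, listed under the older name Tcfap2c, was assigned to Tfap2c through its accession. This gave 10 probes of the 41174 on the array, with 2 probes for Krt8 and 1 for every other gene. All 10 entered the tests, which took the 31415 probes that the scanner software marked as well above background somewhere in the set.

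The study asked how mouse embryonic fibroblasts (MEFs) change when a human artificial chromosome (HAC) delivers the reprogramming factors that turn them into induced pluripotent stem (iPS) cells. The vector iHAC1 carries duplicated cassettes for Oct4, Sox2, Klf4 and c-Myc under the ubiquitous CAG promoter. The vector iHAC2 adds further copies of Oct4 and a short hairpin RNA against p53. Both vectors are designed to remain separate from the host chromosomes, and cells that have lost iHAC2 can be sorted by the loss of the green fluorescence that the vector encodes. The samples were MEFs from C57BL/6 embryos (n = 1), the embryonic stem (ES) cell lines B6ES (C57BL/6) and TT2 (C57BL/6 x CBA) (n = 2), the iPS line 20D17 made with retroviruses on a C57BL/6 x DBA background (n = 1), 4 iHAC1-iPS clones (1-A3, 1-B, 1-C3, 1-D6), 4 iHAC2-iPS clones (2-B1, 2-C6, 2-E, 2-N) and the 4 lines F-B1, F-C5, F-E4, F-N7, called iHAC-free iPS. All HAC-derived cells were C57BL/6, and the clones had also received mimics of the microRNAs miR-294 and miR-295 during reprogramming. Each iHAC-free line was derived from 1 of the 4 iHAC2-iPS clones, in the order given. Replicates were therefore separate clones or lines, each of them clonal, and MEFs and 20D17 had no replicate. Pluripotent cells were grown on fibroblast feeder layers.

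The trophectoderm is the outer epithelium of the blastocyst, which attaches the embryo to the uterus and gives rise to the trophoblast of the placenta. Cdx2, Eomes, Elf5, Gata3 and Tfap2c are transcription factors that set up or maintain this lineage and the stem cells derived from it, Hand1 drives the differentiation of trophoblast giant cells, and Krt8, Krt18 and Krt19 encode the intermediate filaments of simple epithelia. ES cells come from the inner cell mass and normally keep the trophoblast programme largely off, but several of these genes are also used elsewhere: Tfap2c in germ cells and in pluripotent cells of the preimplantation type, Gata3 in fibroblasts and immune cells, Eomes and Hand1 in early mesoderm, and the keratins in any simple epithelium.

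Levels are given as log2 signal relative to the 75th percentile of the same array, so a level of 0 equals that percentile and a step of 1 is a doubling. They can be compared between arrays for 1 probe, not between probes. A value marked as not well above background by the scanner software carries only an upper bound. The share of spots well above background was 54.2% to 65.8% per array, no spot was saturated, and the number of arrays limits the precision. Each group difference comes from 1 limma fit of all 16 arrays, is given with its standard error and its adjusted p (Benjamini-Hochberg over 31415 probes), and was called where the adjusted p was under 0.05 and the difference at least 2-fold. The standard error rests on a spread pooled over all groups. A group with widely spread arrays therefore also widens the intervals of comparisons that leave it out. The arrays of iHAC2-iPS and iHAC-free iPS cells were scanned in 1 session and all others in another, so in comparisons across the sessions the group and the scan session cannot be told apart. In bulk RNA, fewer cells of a type and less RNA per cell cannot be told apart either.

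Expression of the 10 probes separated into 2 patterns. The keratins Krt8, Krt18 and Krt19 were high in ES, iHAC2-iPS and iHAC-free iPS cells and fell in iHAC1-iPS cells, although the fall of Krt19 was called against the other HAC-derived groups and not against ES cells. The transcription factors did not move as a block: Cdx2 and Tfap2c were lower than in ES cells in both kinds of clone that carried a vector, Gata3 was lower and Elf5 higher in iHAC2-iPS cells than in each of the other groups with replicates, and Eomes gave no call in any of the 6 comparisons. Between iHAC-free iPS and ES cells, 0 of 10 probes were called.

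**Figure D1:**
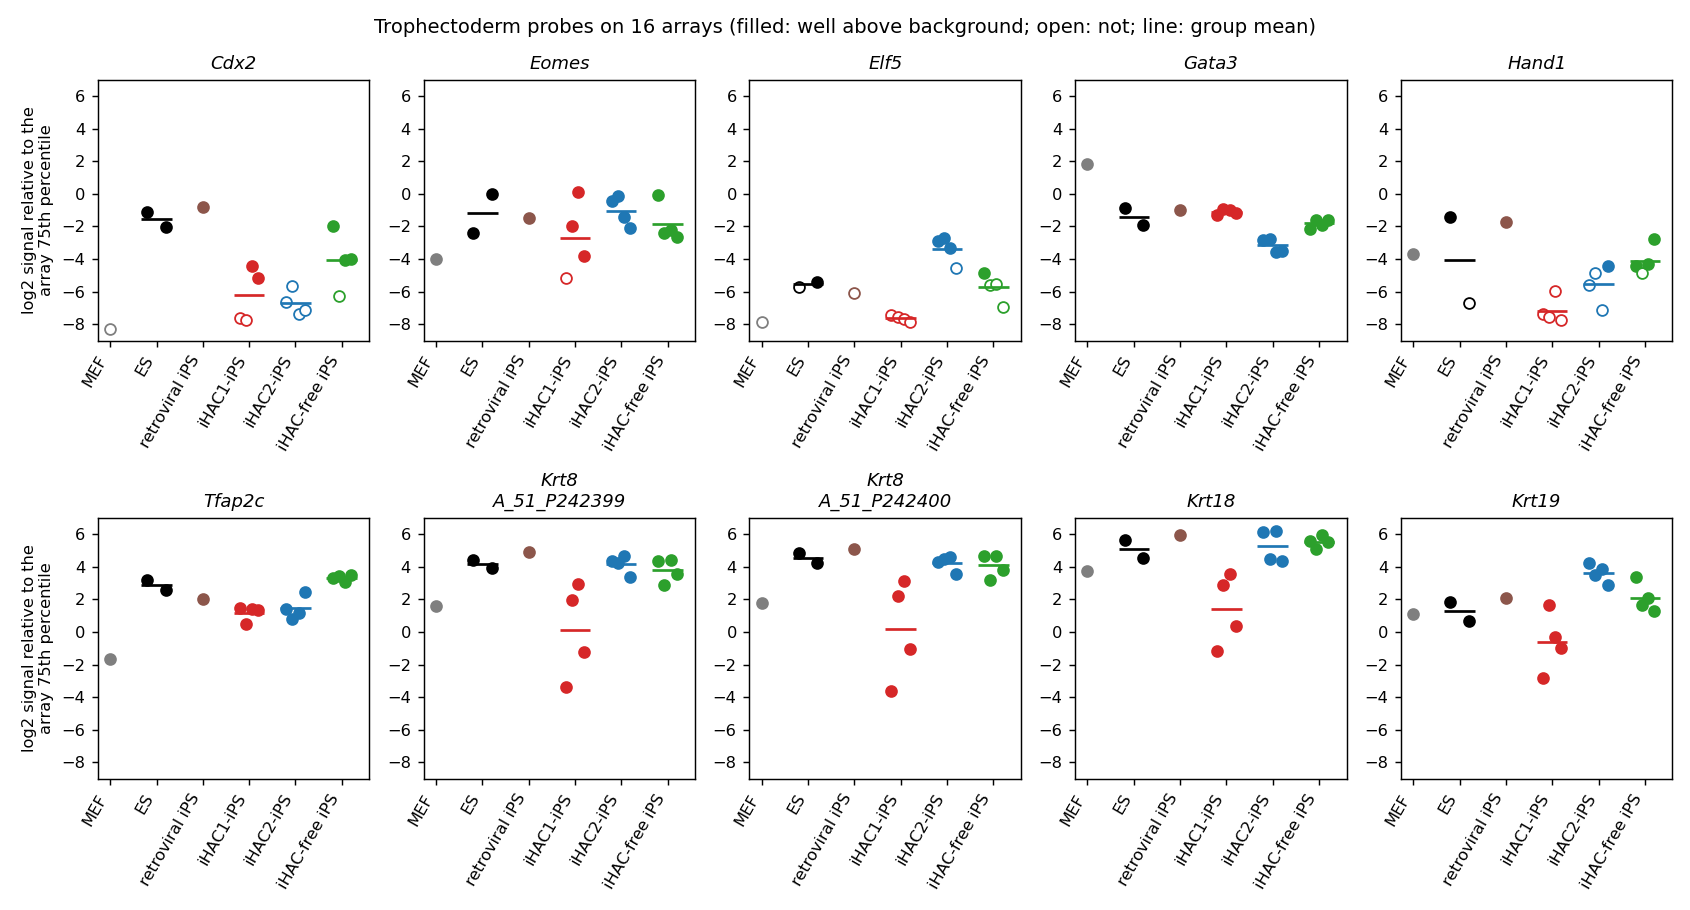
Level of each of the 10 probes on the 16 arrays, as log2 signal relative to the 75th percentile of the array (vertical axis) for the 6 groups (horizontal axis), with filled points well above background, open points not, and a line at the group mean where a group has over 1 array. The 4 iHAC1-iPS clones spread over 78.9-fold for the first Krt8 probe, and all 4 iHAC2-iPS clones are open for Cdx2.

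Against ES cells, 6 of 10 probes (5 of 9 genes) were called lower in iHAC1-iPS cells and 0 higher, where 14.3% of all tested probes were called. The median difference was -2.58 over the 10 probes and 0.01 over all probes tested. In iHAC2-iPS cells 4 probes were called, 3 lower and 1 higher, where 6.73% of all probes were called. The medians were -0.17 and 0.05. In iHAC-free iPS cells 0 were called, where 0.366% of all probes were called, and 1 of the 10 probes (Cdx2) and 6437 of all probes had an unadjusted limma p under 0.05. These 3 comparisons share the same ES arrays. Between the HAC-derived groups, iHAC1-iPS cells differed from iHAC2-iPS cells in 6 probes, 5 lower and 1 higher (20.0% of all probes were called), and from iHAC-free iPS cells in 7 probes, all lower (20.1%). The iHAC2-iPS clones differed from the iHAC-free iPS lines in 3 probes, 2 lower and 1 higher (0.761%).

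**Figure D2:**
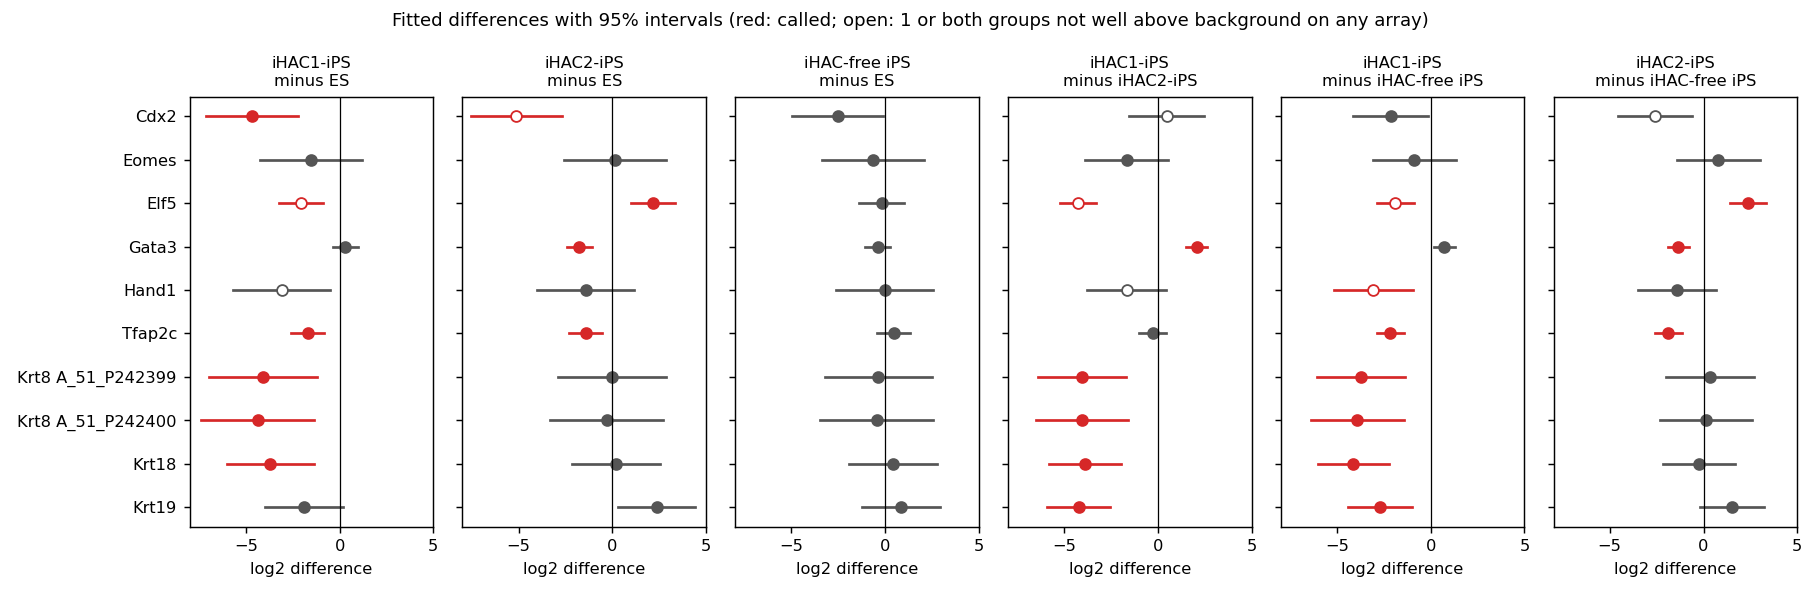
Fitted log2 difference (horizontal axis) of each of the 10 probes (vertical axis) in the 6 comparisons, with 95% intervals as bars, in red where called, and with an open point where at least 1 of the compared groups was not well above background on any array. The red bars of Krt8 and Krt18 lie below 0 in the 3 comparisons that involve iHAC1-iPS cells, and no bar is red for iHAC-free iPS minus ES cells.

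Cdx2, the homeobox factor that specifies the trophectoderm and represses Oct4 there, was well above background in ES cells, at -1.10 in B6ES and -2.01 in TT2, and at -0.82 in 20D17. In iHAC1-iPS cells it was well above background only in 1-C3 (-4.41) and 1-D6 (-5.16), and in iHAC2-iPS cells in none of the 4 clones. The iHAC-free lines were at -1.99 in F-B1, -4.06 in F-E4 and -4.01 in F-N7, and F-C5 was not well above background. ES cells and 20D17 were thus above every HAC-derived array except F-B1, which lay within the ES pair, and the MEF array was not well above background. The probe lies at chr5:148112547-148112606 on the minus strand (mm9, as the array files give it). The iHAC1-iPS cells were called lower than ES cells (log2 difference -4.67, SE 1.12, adjusted p = 0.0123), as were the iHAC2-iPS cells (adjusted p = 0.0188), in which the level was at least 9.19-fold lower. These sizes rest on values that were not well above background (2 of 4 iHAC1-iPS and 4 of 4 iHAC2-iPS arrays) and on the background correction, and with normexp the differences were -1.85 and -1.95 (adjusted p = 0.00272 and 0.00603), both still called. The iHAC-free lines varied widely among themselves, and their difference from ES cells of -2.53 (SE 1.12, 95% interval -4.96 to -0.10, adjusted p = 0.227) was not called. Without B6ES, the calls against ES cells were lost for iHAC1-iPS (adjusted p = 0.12) and iHAC2-iPS cells (0.128), and without TT2 the call for iHAC2-iPS cells was lost (0.0837). For iHAC1-iPS minus iHAC-free iPS cells the difference (-2.14, adjusted p = 0.0852) became a call without 1-C3 (-2.74, adjusted p = 0.0382) or without F-C5 (-2.87, adjusted p = 0.0261).

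Tfap2c, an AP-2 factor of the trophectoderm that is also expressed in naive pluripotent cells, was well above background on all 16 arrays (probe at chr2:172383860-172383919, plus strand, mm9). It stood at 3.18 in B6ES and 2.56 in TT2, at 2.01 in 20D17 and at -1.65 in MEFs. Of the iHAC-free lines, F-N7 was at 3.52, F-C5 at 3.42, F-B1 at 3.31 and F-E4 at 3.05. The iHAC1-iPS clones were at 1.47 (1-A3), 0.48 (1-B), 1.39 (1-C3) and 1.33 (1-D6), and the iHAC2-iPS clones at 1.39 (2-B1), 0.80 (2-C6), 1.16 (2-E) and 2.44 (2-N).
All clones carrying a vector therefore lay below both ES lines and all iHAC-free lines, and above the MEF array. Tfap2c was lower than in ES cells by a log2 difference of -1.70 (SE 0.40, adjusted p = 0.0118) in iHAC1-iPS cells and -1.42 (SE 0.40, adjusted p = 0.0424) in iHAC2-iPS cells. It was lower than in iHAC-free iPS cells by -2.16 (SE 0.33, adjusted p = 0.000488) and -1.88 (SE 0.33, adjusted p = 0.0254). In the order of the means, iHAC-free iPS and ES cells were neighbours that did not differ beyond their spread (0.45, 95% interval -0.43 to 1.33), and so were iHAC2-iPS and iHAC1-iPS cells (-0.28 for iHAC1-iPS minus iHAC2-iPS, 95% interval -1.0 to 0.44).
Each of the 4 iHAC2-iPS clones was below the line derived from it, by -1.92 (2-B1 to F-B1), -2.62 (2-C6 to F-C5), -1.89 (2-E to F-E4) and -1.08 (2-N to F-N7), and the mean difference was -2.25 within one slide that held both groups and -1.50 within the other. In the paired analysis, blocked on the line of origin, the call against the iHAC-free lines held (adjusted p = 0.0419). In the fit without that block it was lost without 2-B1 (adjusted p = 0.0532), 2-E (0.0692), F-B1 (0.0713), F-C5 (0.0713), F-E4 (0.0633) or F-N7 (0.0875). The calls against ES cells were lost for iHAC1-iPS cells without B6ES (0.141), and for iHAC2-iPS cells without B6ES (0.263), TT2 (0.111), 2-B1 (0.0737) or 2-E (0.086).

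Gata3, a zinc finger factor that acts beside Cdx2 in the trophectoderm, was highest in MEFs (1.82; probe at chr2:9778983-9779042, minus strand, mm9). Of all 10 probes it was the only one whose MEF level exceeded every other array. It was at -0.90 in B6ES, -1.92 in TT2 and -0.97 in 20D17. The iHAC1-iPS clones lay close together at -1.27, -0.90, -1.0 and -1.20 (1-A3, 1-B, 1-C3, 1-D6), the iHAC-free lines at -2.17, -1.59, -1.91 and -1.58 (F-B1, F-C5, F-E4, F-N7), and the iHAC2-iPS clones at -2.80, -2.80, -3.57 and -3.49 (2-B1, 2-C6, 2-E, 2-N).
The iHAC2-iPS clones were below every other array and did not overlap any group. The log2 difference was -1.76 (SE 0.31, adjusted p = 0.00879) from ES cells and -1.36 (SE 0.26, adjusted p = 0.0296) from the iHAC-free lines, and iHAC1-iPS cells exceeded them by 2.07 (SE 0.26, adjusted p = 0.000214). The iHAC1-iPS and iHAC-free iPS groups did not overlap either, but their difference of 0.72 (SE 0.26, adjusted p = 0.0443) was under 2-fold and was not called. ES cells lay between them and could not be told from either, with differences of 0.32 (95% interval -0.37 to 1.00) for iHAC1-iPS cells and -0.40 (95% interval -1.08 to 0.28) for iHAC-free iPS cells.
All 4 clones were below their own iHAC-free line, by -0.64 to -1.91, and the within-slide differences were -1.44 and -1.27. The paired analysis, blocked on the line of origin, gave the same difference with an adjusted p of 0.0671, so that this call was lost in it. In the fit without that block it was also lost with normexp (-0.69, under 2-fold), with slide as a block (adjusted p = 0.0655) and without 2-E (0.0812), F-B1 (0.0622), F-C5 (0.0939), F-E4 (0.0825) or F-N7 (0.106), and the call against ES cells without B6ES (-1.24, 0.0921).

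Elf5, an ETS factor that sustains trophoblast stem cells and is methylated and silent in ES cells, was dim throughout (probe at chr2:103290958-103291017, plus strand, mm9). It was well above background on 5 arrays: TT2 (-5.38), the iHAC2-iPS clones 2-B1 (-2.90), 2-C6 (-2.72) and 2-E (-3.31), and the iHAC-free line F-B1 (-4.86). The fourth iHAC2-iPS clone, 2-N, read -4.58 and was not well above background. The 3 measured iHAC2-iPS clones were above every other array, and no iHAC1-iPS clone, nor MEFs, B6ES or 20D17, had a measured level.
The iHAC2-iPS cells were called higher than ES cells (log2 difference 2.18, SE 0.54, adjusted p = 0.0284; 3 of 4 against 1 of 2 arrays measured) and than iHAC-free iPS cells (2.37, SE 0.44, adjusted p = 0.0295; 3 of 4 against 1 of 4). Against iHAC1-iPS cells (adjusted p = 8.37e-05) the level was at least 4.41-fold higher. Elf5 was also called lower in iHAC1-iPS cells against ES and iHAC-free iPS cells (adjusted p = 0.0192 and 0.00619, the calls being lost with normexp), but there the brighter group was itself no brighter than the detection limit of the iHAC1-iPS arrays, so no fold is given.
The clone 2-B1 was above its own iHAC-free line by 1.95, both being measured. The clones 2-C6 and 2-E were measured and their lines were not, and in the pair of 2-N and F-N7 neither was. Both within-slide differences were positive (2.56 and 2.17). These sizes depended on the background correction: with normexp in place of the local background subtraction, iHAC2-iPS cells exceeded ES cells by 0.65 (adjusted p = 0.0484), iHAC-free iPS cells by 0.94 (0.00897) and iHAC1-iPS cells by 0.83 (0.00156), all under 2-fold. The call against ES cells was lost without B6ES (adjusted p = 0.169), TT2 (0.116), 2-B1 (0.0568) or 2-E (0.0552). That against iHAC-free iPS cells was lost with slide as a block (0.0516) and without 2-B1 (0.0691), 2-E (0.0745), F-C5 (0.0748), F-E4 (0.0806) or F-N7 (0.0794). Spots well above background were fewest on the iHAC2-iPS arrays, at 54.2% to 59.9% against 59.4% to 63.0% for iHAC-free iPS, 61.7% to 62.0% for iHAC1-iPS and 61.8% to 63.8% for ES arrays, and the part of this in the Elf5 result was not tested.

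Eomes, a T-box factor needed for trophoblast proliferation and also active in early mesendoderm, was well above background on 15 arrays and varied widely within groups (probe at chr9:118394286-118394345, plus strand, mm9). The ES lines stood at -2.40 (B6ES) and 0.01 (TT2). The iHAC1-iPS clones ranged from 0.10 in 1-C3 through -2.0 in 1-B and -3.81 in 1-D6 to a value not well above background in 1-A3. The iHAC2-iPS clones were at -0.47, -0.16, -1.44 and -2.11 (2-B1, 2-C6, 2-E, 2-N), and the iHAC-free lines at -0.09, -2.38, -2.22 and -2.65 (F-B1, F-C5, F-E4, F-N7).
All 4 groups with replicates overlapped, and the differences from ES cells were -1.52 (95% interval -4.23 to 1.20), 0.15 (-2.56 to 2.86) and -0.64 (-3.35 to 2.08) for iHAC1-iPS, iHAC2-iPS and iHAC-free iPS cells. These intervals are wide enough to hold differences of over 4-fold in either direction or, for iHAC1-iPS cells, over 4-fold lower. Leaving out 1-C3 gave a call for iHAC1-iPS minus iHAC2-iPS cells (-2.61, adjusted p = 0.0407; -1.67 and 0.213 with all arrays). The MEF array read -4.02 and 20D17 -1.48.

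Hand1, a basic helix-loop-helix factor of trophoblast giant cells and of early mesoderm, was well above background on 7 arrays (probe at chr11:57642342-57642401, minus strand, mm9). It differed most between the ES lines of all members: B6ES read -1.44, whereas TT2 was not well above background. MEFs were at -3.66, 20D17 at -1.71, the clone 2-N at -4.44, and the lines F-B1, F-E4 and F-N7 at -4.41, -4.33 and -2.77. No iHAC1-iPS clone had a measured level.
Hand1 was called lower in iHAC1-iPS minus iHAC-free iPS cells (adjusted p = 0.0263), by at least 2.68-fold. With normexp the difference was -0.35 (adjusted p = 0.377), and the call was lost without 1-A3 (0.0573), 1-B (0.0551), 1-D6 (0.0666) or F-N7 (0.0779). The differences from ES cells were not called and moved with the ES line used: without TT2, iHAC1-iPS cells were called lower (adjusted p = 0.00621), and without B6ES the fitted difference for iHAC-free iPS cells changed from -0.02 to 2.62 (adjusted p = 0.368).

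The keratins form obligate pairs, in which a type II chain (Krt8) assembles with a type I chain (Krt18 or Krt19). Krt8 and Krt18 lie beside each other on chromosome 15, and their probes were placed by the array design (mm9) at chr15:101827346-101827405 and chr15:101827214-101827273 on the minus strand for Krt8 and at chr15:101862341-101862400 on the plus strand for Krt18. The Krt19 probe lies at chr11:100002392-100002451 on the minus strand. Exons were not assigned here. The first 30 of the 60 bases of each keratin probe are shown because the 3 genes gave the largest coordinated change, with capitals for the longest run shared by the first Krt8 probe and the Krt18 probe, which is 11 bases.
Krt8, first probe: TGGTGTCCGAGtcttctgatgtcgtgtcca
Krt8, second probe: ccgaggatcagccctaatcctctggccaac
Krt18: ggatggcagagTGGTGTCCGAGactaatga
Krt19: acggaggcccgttatggagtccagctgtca
No other pair of these probes shared a run of more than 7 bases over their full length.

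Krt8 was read by 2 probes without a long shared run, and on the 16 arrays the second probe differed from the first by -0.25 to 0.42. On the first probe the level was 4.44 in B6ES, 3.91 in TT2, 4.90 in 20D17 and 1.60 in MEFs. The iHAC2-iPS clones were at 4.33, 4.21, 4.67 and 3.39 (2-B1, 2-C6, 2-E, 2-N) and the iHAC-free lines at 4.35, 2.92, 4.41 and 3.56 (F-B1, F-C5, F-E4, F-N7).
The iHAC1-iPS clones split: 1-C3 (2.96) and 1-B (1.99) were above the MEF array, and 1-D6 (-1.21) and 1-A3 (-3.34) were below it. The highest clone, 1-C3, was 78.9-fold above the lowest, whereas the other groups of 4 spanned 2.42-fold (iHAC2-iPS) and 2.81-fold (iHAC-free iPS). All 4 iHAC1-iPS clones were below both ES lines and all iHAC2-iPS clones, and 1-C3 alone reached above an iHAC-free line, F-C5.
Krt8 was called lower in iHAC1-iPS cells by -4.08 (SE 1.32, adjusted p = 0.045) than in ES cells, by -4.05 (SE 1.07, adjusted p = 0.0121) than in iHAC2-iPS cells and by -3.71 (SE 1.07, adjusted p = 0.0177) than in iHAC-free iPS cells, and the second probe gave calls in the same 3 comparisons. Between ES, iHAC2-iPS and iHAC-free iPS cells no difference was called, the 95% interval against ES cells being -2.89 to 2.84 for iHAC2-iPS and -3.23 to 2.49 for iHAC-free iPS cells. These intervals take in the pooled spread. The standard deviation of the first probe was 2.91 in iHAC1-iPS, 0.38 in ES, 0.54 in iHAC2-iPS and 0.71 in iHAC-free iPS cells.

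Krt18, the partner of Krt8, gave the same order of arrays among the clones. It read 5.65 in B6ES, 4.55 in TT2, 5.96 in 20D17 and 3.72 in MEFs. The iHAC1-iPS clones were at -1.17 (1-A3), 2.88 (1-B), 3.56 (1-C3) and 0.38 (1-D6), all below the MEF array. The iHAC2-iPS clones were at 6.11, 4.51, 6.22 and 4.34 and the iHAC-free lines at 5.57, 5.08, 5.97 and 5.51, in the same order as above.
The iHAC1-iPS clones did not overlap any other group, and the lowest of them was 26.6-fold below the highest. The differences were -3.69 (SE 1.08, adjusted p = 0.0298) from ES cells, -3.88 (SE 0.88, adjusted p = 0.00548) from iHAC2-iPS cells and -4.12 (SE 0.88, adjusted p = 0.00349) from iHAC-free iPS cells. ES, iHAC2-iPS and iHAC-free iPS cells could not be ordered: their means of 5.10, 5.29 and 5.53 lay within their spread, and the iHAC2-iPS clones themselves fell 2 high and 2 low.

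Krt19, a type I keratin without a tail domain that marks the trophectoderm among other epithelia, followed a partly different order. It was at 1.86 in B6ES, 0.68 in TT2, 2.06 in 20D17 and 1.09 in MEFs. The iHAC1-iPS clones were at -2.84, 1.69, -0.31 and -0.96 (1-A3, 1-B, 1-C3, 1-D6), the iHAC2-iPS clones at 4.24, 3.47, 3.89 and 2.91 and the iHAC-free lines at 3.38, 1.68, 2.07 and 1.31.
The iHAC2-iPS clones were above both ES lines, the MEF array and 20D17, and each was above its own iHAC-free line, by 0.85 to 1.82. Their differences of 2.35 from ES cells (SE 0.96, adjusted p = 0.118) and 1.52 over the iHAC-free lines (SE 0.78, adjusted p = 0.322) were nonetheless not called. These standard errors also take in the spread of the iHAC1-iPS clones. The standard deviation was 1.87 in iHAC1-iPS, 0.84 in ES, 0.57 in iHAC2-iPS and 0.90 in iHAC-free iPS cells. The iHAC1-iPS cells were lower by -4.23 (SE 0.78, adjusted p = 0.0018) than iHAC2-iPS cells and by -2.72 (SE 0.78, adjusted p = 0.0169) than iHAC-free iPS cells, while their difference of -1.88 from ES cells (SE 0.96, adjusted p = 0.185) was not called, with 1-B inside the ES pair. Without 1-B the last became a call (-2.64, adjusted p = 0.032), and without F-B1 the call against iHAC-free iPS cells was lost (adjusted p = 0.0503).

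**Figure D3:**
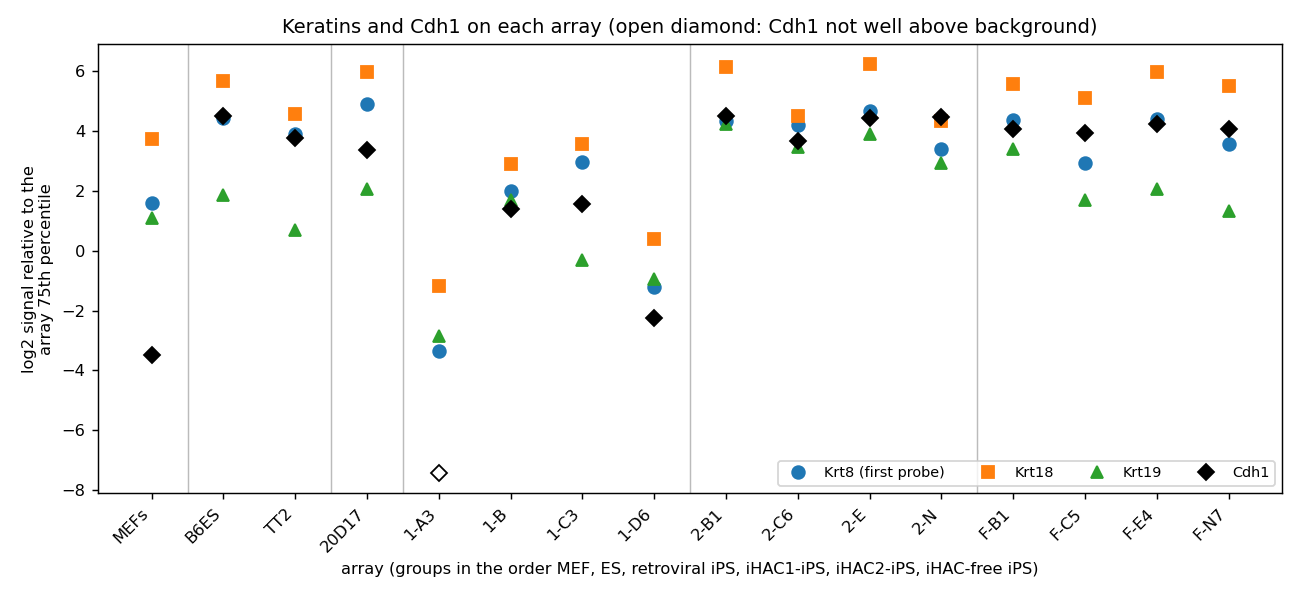
Level of Krt8 (first probe), Krt18, Krt19 and, for comparison, Cdh1 on each array (horizontal axis, grey lines between groups), as log2 signal relative to the 75th percentile of the array. The 4 genes are all lowest in clone 1-A3 and next lowest in 1-D6 among the 12 HAC-derived arrays, and Cdh1 is open in 1-A3, where it was not well above background.

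The size of the keratin differences rested on 1-A3 and 1-D6. Without both, a choice made after their levels had been seen, the difference of iHAC1-iPS from ES cells was -1.70 (adjusted p = 0.09) for the first Krt8 probe and -1.88 (adjusted p = 0.108) for Krt18, and only 1 of the 10 probes, Tfap2c, was still called against ES cells. Against iHAC-free iPS cells Krt19 was no longer called (-1.42, adjusted p = 0.17), nor was Hand1 (-2.67, adjusted p = 0.169). The Krt8 calls against these lines were lost as well (first probe -1.33, adjusted p = 0.0805, second probe -1.42, adjusted p = 0.063), whereas that of Krt18 held. Against iHAC2-iPS cells, the first Krt8 probe, Krt18 and Krt19 were still called without both clones, and the second Krt8 probe was not (-1.56, adjusted p = 0.0527).
Of the iHAC1-iPS clones only 1-D6 shared a slide with the ES lines, and it lay below them on that slide by -5.39 (first Krt8 probe), -4.72 (Krt18) and -2.23 (Krt19), and for other members by -3.60 (Cdx2) and -1.54 (Tfap2c). With slide as a block, which reduces the comparison to this clone, 0 of the 10 probes were called in iHAC1-iPS minus ES cells. The keratin calls against ES cells were also lost without B6ES (adjusted p = 0.231 for the first Krt8 probe, 0.228 for the second and 0.22 for Krt18), without TT2 (0.134, 0.126 and 0.0774) and without 1-D6 (0.0982, 0.0925 and 0.0683), and for Krt8 without 1-A3 (0.0617 and 0.0503), with quantile normalization (0.0523 and 0.0507) and when dim probes were kept (0.0538 and 0.0508). Against iHAC-free iPS cells both Krt8 calls were lost without 1-D6 (0.0545 and 0.0531).

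The promoters of Krt8 and Krt18 are printed because the 2 genes moved together and lie side by side. Both come from RefSeq (GRCm38.p6), from 250 bases before to 50 after the annotated start, 5′ to 3′ on the gene's own strand. Of the 9 genes, 6 had an entry. Capitals mark matches to the motifs searched on both strands, which were TATAAA (the TATA box), GGGCGG (the GC box), GCCNNNGGC (the AP-2 core), TGANTCA (an AP-1 motif), CATTCC (a TEAD motif) and CCAAT (the CCAAT box). The Krt8 promoter, chr15:102004293-102004592 on the minus strand, and the Krt18 promoter, chr15:102027966-102028265 on the plus strand, read as follows.
Krt8: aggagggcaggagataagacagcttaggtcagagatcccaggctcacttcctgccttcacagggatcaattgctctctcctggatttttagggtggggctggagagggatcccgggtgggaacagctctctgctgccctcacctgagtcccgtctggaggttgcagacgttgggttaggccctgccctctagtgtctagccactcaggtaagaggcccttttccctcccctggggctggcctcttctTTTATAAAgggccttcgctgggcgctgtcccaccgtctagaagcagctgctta
Krt18: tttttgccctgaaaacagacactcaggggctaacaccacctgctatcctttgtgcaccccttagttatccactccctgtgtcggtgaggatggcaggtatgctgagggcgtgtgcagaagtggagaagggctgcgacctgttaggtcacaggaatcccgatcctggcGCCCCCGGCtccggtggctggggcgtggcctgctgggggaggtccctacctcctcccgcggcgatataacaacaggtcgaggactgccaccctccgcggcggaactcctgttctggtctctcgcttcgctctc
The Krt8 window held TATAAA in 2 overlapping matches on opposite strands, which lay across the annotated start (first bases at -3 and -1). The Krt18 window held 1 match to GCCNNNGGC, at -83. TATAAA was present in 13.6% and GCCNNNGGC in 16.6% of the 32851 promoters of this length. The windows held 6 (Krt8) and 17 (Krt18) CpG dinucleotides, against a median of 7 over all promoters. No motif was found in both windows.

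Between the iHAC2-iPS clones and their iHAC-free derivatives lie the loss of the vector and the sorting and sub-cloning that yielded the lines. These steps cannot be told apart here. The 3 called probes were Tfap2c and Gata3, higher in the iHAC-free lines, and Elf5, lower. Cdx2 was not well above background in any of the 4 clones and was measured in 3 of the 4 lines, the exception being F-C5, and its difference was not called (adjusted p = 0.171; at least 1.59-fold). Krt8 and Krt18 differed by 0.34 (95% interval -2.0 to 2.68, first probe) and -0.24 (-2.15 to 1.67), with both signs among the 4 pairs.

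**Figure D4:**
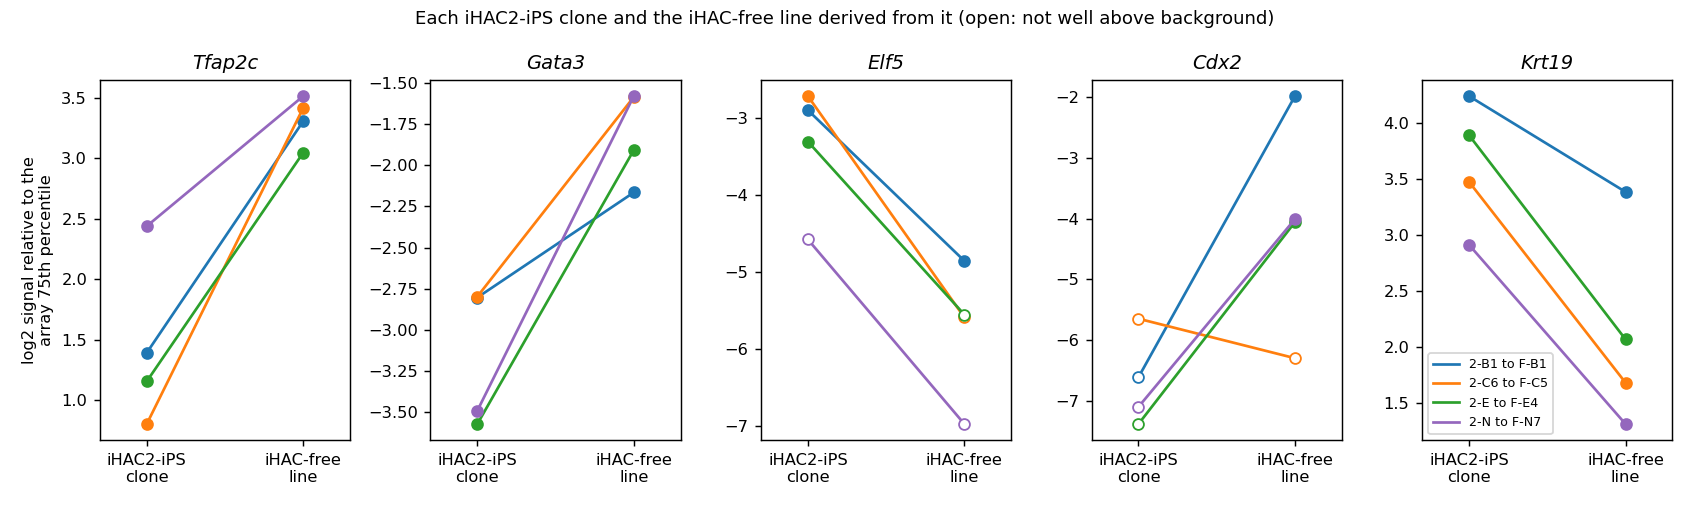
Level of Tfap2c, Gata3, Elf5, Cdx2 and Krt19 in each iHAC2-iPS clone and in the iHAC-free line derived from it, as log2 signal relative to the 75th percentile of the array (vertical axes, each panel on its own scale), with open points not well above background. All 4 lines run upward for Tfap2c and Gata3 and downward for Elf5 and Krt19, and for Cdx2 3 run upward and the pair 2-C6 and F-C5 does not.

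Across the 16 arrays, the probes of other genes most like each member were named by Pearson correlation for the members measured on at least 8 arrays. The correlations are descriptions over 16 arrays that fall into 6 groups of 1 to 4. For the first Krt8 probe they were Krt18 (0.97), Dtx1 (0.97) and St6galnac2 (0.96), for Krt18 they were Bcar3 (0.97), Dtx1 (0.97) and Krt8 (0.97), and for Krt19, Phox2a (0.93), Itga3 (0.93) and Susd4 (0.93). For Tfap2c they were Fignl1 (0.94), Nup62 (0.94) and Cpsf4l (0.94), for Gata3 Msr1, Man1a and Nuak1 (0.94, 0.94 and 0.93), for Cdx2 Fbxl18, Ap5z1 and Nhej1 (0.91, 0.91 and 0.90), and for Eomes Car2, Foxd3 and Fgf8 (0.88, 0.86 and 0.85). Krt19 correlated less with the other keratins, at 0.83 with the first Krt8 probe and 0.84 with Krt18.

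Among 12 upstream and stem-state trophoblast genes, calls went in both directions. In iHAC1-iPS minus ES cells 3 were called (14.3% of all probes were): Wwtr1, a Hippo coactivator (1.26, adjusted p = 0.00216), and Tfap2a (2.09, adjusted p = 0.000694) were higher, and Bmp4 (-3.08, adjusted p = 0.00743) was lower. In iHAC2-iPS minus ES cells Wwtr1 was higher (1.17, adjusted p = 0.0099) and Fgfr2, the receptor through which FGF4 sustains trophoblast stem cells (-2.42, adjusted p = 0.0289), and Gata2 (-2.01, adjusted p = 0.0364) were lower. Wwtr1 was the 1 gene of this list called in iHAC-free iPS minus ES cells (1.16, adjusted p = 0.0438). Between iHAC2-iPS clones and iHAC-free lines, Fgfr2 was lower (-2.53, adjusted p = 0.0358) and Sox21 higher (1.34, adjusted p = 0.0254) in the clones. In iHAC1-iPS minus iHAC-free iPS cells 4 were called (20.1% of all probes), Tfap2a (2.40) and Sox21 (1.0) higher and Bmp4 (-3.13) and Fgfr2 (-1.70) lower. In iHAC1-iPS minus iHAC2-iPS cells 3 were called (20.0%), Tfap2a higher (1.49) and Bmp4 (-1.69) and Dlx3 lower, the last not well above background in any iHAC1-iPS clone. The list medians lay between -0.39 and 0.23 in the 6 comparisons.

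Of 14 genes of differentiated trophoblast, 9 were tested. Called were 3 in iHAC1-iPS minus ES cells (14.3% of all probes were), 3 in iHAC2-iPS minus ES cells (6.73%), 2 each in iHAC1-iPS minus iHAC2-iPS (20.0%), iHAC1-iPS minus iHAC-free iPS (20.1%) and iHAC2-iPS minus iHAC-free iPS cells (0.761%), all lower, and 0 in iHAC-free iPS minus ES cells. The homeobox genes Rhox6 and Rhox9, placental genes that are also expressed in ES and germ cells, were called in every comparison except iHAC-free iPS minus ES. Rhox6 averaged 3.38 in ES and 2.06 in iHAC-free iPS cells, -1.34 in iHAC2-iPS cells, and was not well above background in any iHAC1-iPS clone, which put it at least 477-fold below ES cells (adjusted p = 1.94e-05). Rhox9 differed by -8.29 (iHAC1-iPS minus ES, adjusted p = 3.38e-05) and -5.08 (iHAC2-iPS minus ES, adjusted p = 0.00324). Prl3d1, a giant cell hormone, was lower by -1.48 and -1.38 (adjusted p = 0.00661 and 0.0218) in the same comparisons. Outside these 3 genes no member of this list was called in any comparison.

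The keratin pattern was shared by other genes of simple epithelia. Of 12 such genes, the iHAC1-iPS clones had 10 called lower against ES cells, 12 against iHAC2-iPS cells and 10 against iHAC-free iPS cells, and 0 higher in each. The list medians were -4.20, -3.94 and -3.83. Among the largest against ES cells were the claudins Cldn4 (-6.71, adjusted p = 0.000111, measured on 1 of 4 clones) and Cldn7 (-5.23, adjusted p = 0.000988), and Cdh1, the adhesion protein E-cadherin, which read -7.42 without being well above background in 1-A3, -2.24 in 1-D6, 1.39 in 1-B and 1.56 in 1-C3 and 3.77 to 4.49 in ES cells (-5.81, SE 1.83, adjusted p = 0.0409). In iHAC2-iPS minus ES cells Cldn3 was called higher (2.10, adjusted p = 0.0166), and 0 of the 12 were called in iHAC-free iPS minus ES or in iHAC2-iPS minus iHAC-free iPS cells.

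Since Eomes and Hand1 are also mesoderm genes, 10 primitive streak and early mesoderm genes were set beside them. None was called in iHAC1-iPS minus ES, iHAC-free iPS minus ES or iHAC2-iPS minus iHAC-free iPS cells, Kdr was lower in iHAC2-iPS than in ES cells (-3.07, adjusted p = 0.0339), and Mesp2 and Tbx6 were lower in iHAC1-iPS cells than in the 2 other HAC-derived groups (-1.61 to -1.97). Of 8 primitive endoderm genes tested, Sox7 was lower against ES cells in iHAC1-iPS (-2.42) and iHAC2-iPS (-2.75), and Col4a1, also a fibroblast collagen, was higher in iHAC1-iPS cells in 3 comparisons (1.58, 1.18 and 1.10). Thus 2 of the 8 were called in iHAC1-iPS minus ES (14.3% of all probes) and 1 in iHAC2-iPS minus ES cells (6.73%). In iHAC1-iPS minus iHAC2-iPS (20.0%) and minus iHAC-free iPS cells (20.1%) 1 of the 8 was called. All 10 fibroblast genes were well above background on every array. Their mean level was 3.97 in MEFs, 0.85 to 2.09 in ES cells, 2.60 to 3.41 in iHAC1-iPS, 1.39 to 3.23 in iHAC2-iPS and 2.15 to 3.11 in iHAC-free iPS cells, and 2.94 in 20D17. Of these genes 4 were called higher in iHAC1-iPS minus ES cells, Col1a1 by 2.14 among them, where 14.3% of all probes were called (6.86% higher). Whether RNA of these genes came from feeder fibroblasts or from the sampled cells themselves was not tested, nor was the part of feeder RNA in the member results. Among members the MEF array lay above all ES arrays for Gata3 alone.

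The labelled cell states were checked against 8 pluripotent cell genes. Their mean level was 3.91 to 4.17 in ES, 3.75 to 3.83 in iHAC-free iPS, 2.66 to 4.02 in iHAC2-iPS and -2.14 to 0.36 in iHAC1-iPS cells, and -5.07 in MEFs. In iHAC1-iPS cells 6 of these 8 genes were called lower than in ES cells, where 14.3% of all probes were called (7.41% lower). Pou5f1, which encodes Oct4 and is also carried by the vectors, was called higher (2.77). Whether its probe separates vector from endogenous transcripts was not tested. In the mean level of the 8 genes the iHAC1-iPS clones did not reach ES cells, and all 4 overlapped neither the other pluripotent lines nor MEFs. Pou5f1 by itself went the other way.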

How the data were processed

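Total RNA of 16 samples was labelled with Cy3 and hybridized by the authors to 1-colour Agilent Whole Mouse Genome arrays. The deposited scanner files hold intensity per spot on a linear scale, with local background subtracted by Feature Extraction and no scaling between arrays. The deposited value table gives each probe as centred log2 (column medians -0.33 to 0.28), made by the authors in GeneSpring GX 11, whose settings are not given in the sources used here. It served as an alternative.

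Control and outlier spots were left out, each processed signal was divided by the array's 75th percentile and put on the log2 scale, and spots of a probe were averaged. Probes well above background on at least 1 array were tested in 1 limma fit (lmFit, eBayes) of 6 groups, a design checked on simulated data. Groups came from the sample titles. Members and companion lists were chosen with earlier results of these data known. For companion genes the brightest probe was used, and per list and comparison at most 4 called genes by size were named, plus Pou5f1, Col1a1 and Cdh1. The values of 1 companion gene are not reported here. "At least" folds compare the brighter group's mean with the dimmer group's mean of, per array, the higher of its own value and the lowest signal well above background.

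The iHAC-free lines derive from the iHAC2-iPS clones, which pairs them by cell line. Deviations from the group means correlated at -0.22 to 0.08 within pairs and -0.11 to 0.22 between others. Alternatives were normexp (offset 50), quantile normalization, the deposited table, no or a strict filter on dim probes, slide as a block, only the compared groups, the line of origin as a block, and leaving out each array. Versions were R 4.3.3, limma 3.58.1, Python 3.11.15, matplotlib 3.10.9, scipy 1.17.1, pandas 2.3.3 and numpy 2.4.6.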

Additional observations from a re-analysis of the deposited data

Results flagged for a closer look

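Of 30 groups of 4 arrays (10 probes in 3 groups), 2 held an array that stood far from the other 3 by Dixon's criterion at the 95% level, where chance gives about 1 in 20. Eomes was highest in the iHAC-free line F-B1, at -0.0860, with the other 3 lines at -2.22 to -2.65. Tfap2c was lowest in the iHAC1-iPS clone 1-B, at 0.48, with the other 3 clones at 1.33 to 1.47.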

How the results depend on the processing

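The 26 called differences were recomputed under the alternative settings, which gave 384 pairs of a difference and a setting. Of these pairs, 291 kept the call and direction, 92 lost the call in the same direction and 1 changed sign (Elf5, iHAC1-iPS minus iHAC-free iPS, 0.11 with normexp). All 26 were smaller with normexp. The number of probes called in iHAC1-iPS minus ES (6) was 0 with slide as a block, 3 with only the compared groups and 1 without the clones 1-A3 and 1-D6, an alternative chosen after seeing the data, and 0 to 7 on leaving out an array, with 0 without B6ES and 3 without TT2 or 1-D6. In iHAC2-iPS minus ES (4) it was 2 with the strict filter, which tested 6 of the 10 probes, 0 with only the compared groups and 0 to 4 on leaving out an array, with 0 without B6ES, 1 without TT2 and 2 without 2-B1 or 2-E. In iHAC1-iPS minus iHAC-free iPS (7) it was 3 without 1-A3 and 1-D6 and 4 to 8 on leaving out an array, with 4 without 1-D6. In iHAC2-iPS minus iHAC-free iPS (3) it was 1 with normexp, 1 with slide as a block, 0 with only the compared groups and 0 to 3 on leaving out an array, with 1 without 2-B1 or F-B1 and 0 without 2-E, F-C5, F-E4 or F-N7. The paired analysis, with the origin as a block, gave 2. The cause was not tested beyond the smaller number of arrays or probes in these fits. In iHAC1-iPS minus iHAC2-iPS (6) every alternative gave 5 to 7, and in iHAC-free iPS minus ES 0 in all. Where no slide held both groups, slide was a random block, with a correlation of -0.12.

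Among the 34 differences that were not called, 18 changed sign in some fit, and none was called in a fit that changed its sign. Without 1-A3 and 1-D6, Eomes in iHAC1-iPS cells was 0.25 against ES, 0.10 against iHAC2-iPS and 0.88 against iHAC-free iPS cells. For iHAC2-iPS minus ES the first Krt8 probe was 0.0615 with quantile normalization and 0.14 with slide as a block, and for iHAC-free iPS minus ES, Hand1 was 0.0553 with slide as a block. On leaving out an array, iHAC1-iPS minus ES ranged from -0.20 to 0.83 for Gata3. iHAC2-iPS minus ES ranged from -0.29 to 0.24 and -0.63 to 0.0103 for the Krt8 probes, -0.36 to 0.74 for Krt18, -1.06 to 1.36 for Eomes and -4.07 to 1.21 for Hand1. iHAC-free iPS minus ES ranged from -0.12 to 0.98 for Krt18, -1.84 to 0.57 for Eomes, -2.66 to 2.62 for Hand1, -0.48 to 0.22 for Elf5 and -0.91 to 0.11 for Gata3. iHAC1-iPS minus iHAC2-iPS ranged from -0.50 to 0.0494 for Tfap2c and -0.15 to 0.96 for Cdx2, and iHAC2-iPS minus iHAC-free iPS from -0.17 to 0.36 for the second Krt8 probe and -0.54 to 0.0817 for Krt18.

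Signal over background limits Cdx2, Elf5 and Hand1, which were well above background on 8, 5 and 7 arrays, and group sizes of 2 to 4 clones or lines limit every probe.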
